A study of Homo sapiens with 36 samples.

Results

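The aldo-keto reductases are cytosolic enzymes that use NADPH to reduce the carbonyl groups of aldehydes, ketones, sugars, steroids and prostaglandins. The 8 genes described here, AKR1A1, AKR1B1, AKR1B10, AKR1C1, AKR1C2, AKR1C3, AKR7A2 and AKR7A3, were taken by symbol from an mRNA count table of 60591 genes, and all 8 were found. The table came from 2 human colon adenocarcinoma cell lines: Caco-2, cultured for 21 days so that it takes on enterocyte properties, and HT-29, for which no differentiation time was given. Each line was exposed for 24 h to cobalt (II) chloride (CoCl2, 300 µM, from a stock in water), to an oxyquinoline derivative (OD, 5 µM, added with 0.5 µl DMSO per ml), or to 0.5 µl DMSO per ml alone as control, and 3 mRNA libraries were sequenced for each of the 6 groups. Cobalt ions and oxyquinolines are used to mimic hypoxia, since they slow the breakdown of hypoxia-inducible factor (HIF), which oxygen-dependent enzymes set off. The study's methods, in a passage on Caco-2, say that the CoCl2 medium received DMSO too, which the labels do not state. For HT-29 it was not stated, and there CoCl2 and a lack of DMSO cannot be told apart. In the passage on Caco-2 the DMSO share is 0.5%, which differs from the 0.5 µl per ml of the labels. Each line is a single tumor-derived line, and the 3 libraries of a group are biological replicates by the study's methods. Whether these were separate cultures is not stated, so p-values measure the spread between these libraries.

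Many AKR genes are known targets of NRF2, a transcription factor that is held down by KEAP1 and that binds antioxidant response elements when cells meet electrophiles, metals or oxidants. HIF binds a different sequence, the hypoxia response element. AKR1B10 and the AKR1C enzymes are known from the intestine and from tumors, where they take part in the metabolism of retinal, steroid hormones and lipid aldehydes.

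The AKR1C genes are so alike that reads of 75 bases often cannot be assigned to a single gene. Their first 150 coding bases are given here with capitals at the 24 positions where the 3 genes are not all the same, because the closeness of these copies limits what each count means.
AKR1C1: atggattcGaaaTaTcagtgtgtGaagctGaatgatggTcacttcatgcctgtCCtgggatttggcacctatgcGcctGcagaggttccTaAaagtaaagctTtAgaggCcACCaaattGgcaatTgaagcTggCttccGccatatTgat
AKR1C2: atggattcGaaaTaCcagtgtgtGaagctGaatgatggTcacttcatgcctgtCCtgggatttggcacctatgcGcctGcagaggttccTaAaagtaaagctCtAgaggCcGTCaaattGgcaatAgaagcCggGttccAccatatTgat
AKR1C3: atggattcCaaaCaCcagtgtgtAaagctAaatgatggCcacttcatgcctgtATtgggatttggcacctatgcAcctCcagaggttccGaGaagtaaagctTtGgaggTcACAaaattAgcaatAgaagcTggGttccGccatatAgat
Over the whole coding sequence of the canonical transcripts (GENCODE release 44), AKR1C1 and AKR1C2 differed at 19 of 972 bases (98.0% identity), AKR1C1 and AKR1C3 at 83 (91.5%), and AKR1C2 and AKR1C3 at 87 (91.0%). AKR1C2 had the largest share of 75-base windows that also occur in a transcript of another gene, 36.0% of 3141 windows, most of them shared with AKR1C1. The share was 16.8% for AKR1C1, 12.3% for AKR1C3 and 7.31% for AKR1B10, whose partners were AKR1B15 and a pseudogene. No window of the canonical AKR1A1 or AKR1B1 transcript was shared. How reads that match more than 1 gene were counted is not given in the sources used here, and values of the AKR1C genes and of AKR7A3 are uncertain to that extent.

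**Figure D1:**
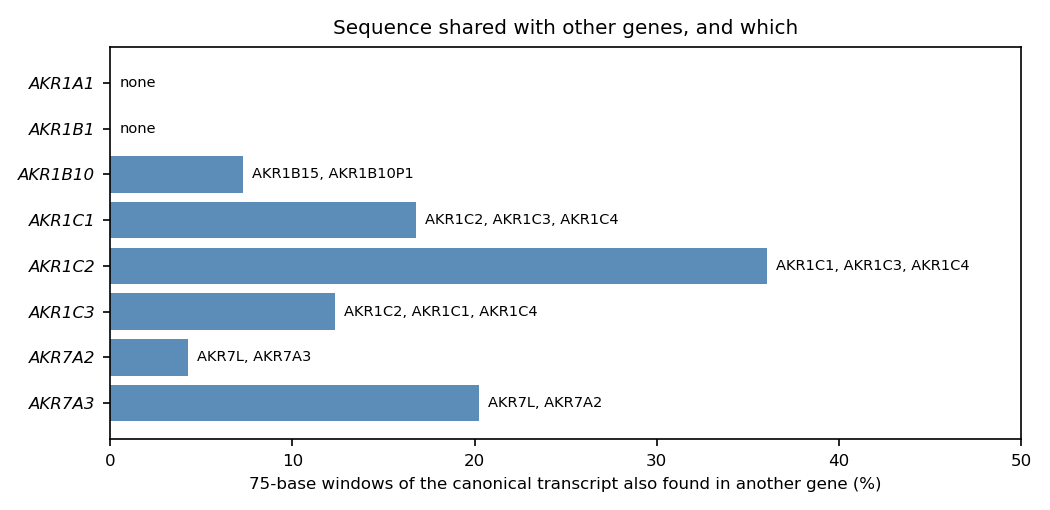
Share of 75-base windows of each gene's canonical transcript (x axis, percent) that also occur exactly in a transcript of another gene, with those genes named beside the bar. AKR1C2 reached 36.0% and AKR7A3 20.2%, while AKR1A1 and AKR1B1 had none.

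The AKR7A pair is also close. Its last 150 coding bases, shown for the same reason, differ at 4 positions, which are in capitals.
AKR7A2: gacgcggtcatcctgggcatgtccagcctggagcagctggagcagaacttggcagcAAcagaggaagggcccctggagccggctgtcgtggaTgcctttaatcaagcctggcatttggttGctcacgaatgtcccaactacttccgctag
AKR7A3: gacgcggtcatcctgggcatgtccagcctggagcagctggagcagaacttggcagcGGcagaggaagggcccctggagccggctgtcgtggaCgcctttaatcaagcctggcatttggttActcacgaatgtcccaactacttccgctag
The coding sequences of AKR7A2 and AKR7A3 were 92.2% identical over 996 aligned bases. Of the windows of AKR7A3, 20.2% were shared, all of these with AKR7L and some of them also with AKR7A2. In AKR7A2 the share was 4.28%.

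The genes lie in 4 places of the genome (GRCh38, GENCODE release 44, all protein-coding). AKR1C2 (chromosome 10, 4987775 to 5018031, minus strand) lies between AKR1C1 (4963253 to 4983283, plus strand) and AKR1C3 (5035354 to 5107686, plus strand). AKR1B1 (134442356 to 134459284, minus strand) and AKR1B10 (134527567 to 134541412, plus strand) lie together on chromosome 7. AKR7A2 (19303965 to 19312144) and AKR7A3 (19282573 to 19288770), both on the minus strand, and AKR1A1 (45550543 to 45570049, plus strand) are on chromosome 1. AKR1C2, AKR1C3 and AKR7A2 overlap other annotated genes, small RNA genes among them, and use of strand in the counting is not given in the sources used here.

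RefSeq promoter entries (GRCh38.p14) were at hand for 7 of the 8 genes, AKR1B10 being the gene without one. The 250 bases before the start were searched on both strands for the antioxidant response element cores TGACNNNGC and TGAGNNNGC and for the hypoxia response element cores ACGTG and GCGTG, where matches of the last pair may overlap each other. An antioxidant response element core was found in 4 of the 7 genes, AKR1C1, AKR1C2, AKR7A2 and AKR7A3, and in 5 of their 10 promoters, against 23.9% of all 35116 promoters searched in the same way. A hypoxia response element core was found in AKR1A1, AKR1B1, AKR7A2 and AKR7A3, also 4 of 7 genes and 6 of 10 promoters, against 43.2% of all promoters. The paired starts of AKR7A2 lie 2 bases apart and so share their matches. Both promoters of AKR1B1 overlap and hold the same hypoxia response element core. The near-identical promoters of AKR1C1 and AKR1C2 hold the same antioxidant core. The promoter counts thus include repeats of the same sequence. The promoters of AKR1C1 (chr10:4963165-4963414, plus strand), AKR1C2 (chr10:5003858-5004107, minus strand), AKR1C3 (chr10:5048531-5048780, plus strand) and AKR7A2 (chr1:19312147-19312396, minus strand) are shown because the first 3 rose in HT-29 and the fourth fell, with the matched cores in capitals.
AKR1C1: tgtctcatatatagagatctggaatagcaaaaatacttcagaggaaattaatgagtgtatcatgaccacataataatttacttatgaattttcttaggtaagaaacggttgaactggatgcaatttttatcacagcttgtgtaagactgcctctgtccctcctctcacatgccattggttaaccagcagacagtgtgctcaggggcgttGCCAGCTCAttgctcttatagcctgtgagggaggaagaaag
AKR1C2: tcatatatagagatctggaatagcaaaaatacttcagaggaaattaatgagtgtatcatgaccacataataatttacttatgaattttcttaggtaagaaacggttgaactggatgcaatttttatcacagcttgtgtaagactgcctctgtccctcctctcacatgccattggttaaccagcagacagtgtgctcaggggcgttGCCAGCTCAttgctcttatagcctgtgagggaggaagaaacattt
AKR1C3: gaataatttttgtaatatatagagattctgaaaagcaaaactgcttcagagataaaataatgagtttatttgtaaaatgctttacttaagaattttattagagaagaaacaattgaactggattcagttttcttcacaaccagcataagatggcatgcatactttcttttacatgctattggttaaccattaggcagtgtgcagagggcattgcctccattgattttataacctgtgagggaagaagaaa
AKR7A2: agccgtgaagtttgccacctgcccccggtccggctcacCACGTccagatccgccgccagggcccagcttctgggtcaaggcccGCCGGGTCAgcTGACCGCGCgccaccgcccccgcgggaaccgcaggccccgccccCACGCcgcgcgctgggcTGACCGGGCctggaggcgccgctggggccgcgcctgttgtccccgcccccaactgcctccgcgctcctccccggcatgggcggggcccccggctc
The promoters of AKR1C1 and AKR1C2 were identical at 245 of 246 aligned bases and held the same single core, read on the minus strand, from 41 to 33 bases before the start in AKR1C1 and from 45 to 37 in AKR1C2. AKR1C3 had 76.8% identity with AKR1C1 over 241 aligned bases and held neither kind of core in this window or in that of its second RefSeq start. AKR7A2, which fell with CoCl2 in HT-29, held 3 antioxidant and 2 hypoxia response element cores. A match describes these letters and is not a bound site.

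Library totals ranged from 12925719 to 22332639 counts. Values are given as counts-per-million (CPM) on library sizes scaled with edgeR's TMM factors over all 18 libraries, and fold changes come from fits within a line, so a ratio of CPM can differ from the fold change by a few percent. Without TMM, the median log2 change of all genes stood at -0.35 for CoCl2 in Caco-2, -0.18 for OD in Caco-2, -0.66 for CoCl2 in HT-29 and -0.13 for OD in HT-29, and changes below are relative to TMM scaling. Epithelial markers were at 1 CPM or more for 7 or 8 of 8 genes in every group, and their summed level ranged from 5003 to 9077 CPM. Enterocyte markers were at that level for 8 or 9 of 9 genes in Caco-2 (summed 3697 to 5275 CPM) and for 3 or 4 of 9 in HT-29 (149 to 206 CPM), and PTPRC, CD3E, COL1A2 and VWF, markers of blood, stromal and endothelial cells, were under 1 CPM in all groups. The other 2 of these 6 markers were not: COL1A1, a collagen chain, had group means of 16.6 to 24.6 CPM in Caco-2 and 1.48 to 5.83 CPM in HT-29, and PECAM1, an endothelial adhesion molecule, of 1.99 to 8.68 CPM in Caco-2 and 0.389 to 1.75 CPM in HT-29. The 6 summed to 2.32 to 39.1 CPM, and their part in the results was not tested. Replicate 1 of Caco-2 CoCl2 and replicate 1 of Caco-2 OD stood apart from the other libraries of their group, with a chi-square over all genes, divided by its degrees of freedom, of 8.20 to 11.8 against them, while no other pair of replicates exceeded 5.88. In bulk RNA, fewer cells of a type and less RNA per cell cannot be told apart.

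A gene was called higher or lower at a false discovery rate under 0.05 over all genes tested and an absolute log2 fold change over 1, in edgeR's quasi-likelihood test. In HT-29, CoCl2 raised 5 of the 8 genes (AKR1B1, AKR1B10, AKR1C1, AKR1C2 and AKR1C3), against 17.4% of all genes called higher. It lowered 2 (AKR7A2 and AKR7A3), a count near the share of 23.9% called lower over all genes. OD raised the same 5 genes in HT-29 and lowered none, where 9.5% of all genes were called higher and 7.57% lower. In Caco-2, CoCl2 raised 3 (AKR1B10, AKR1C1 and AKR1C2) and lowered none, with 9.13% of all genes called higher and 14.2% lower. OD gave no call in either direction in Caco-2, where 4.43% of genes were called higher and 7.27% lower. There, 3 of the 8 genes had an unadjusted p under 0.05, and the same number an adjusted p under 0.05, each below the fold limit, and DESeq2 called 0 as well. The median log2 fold change of the 8 genes in HT-29 was 2.83 for CoCl2 and 2.04 for OD, and in Caco-2 0.30 and 0.08, with medians over all genes tested between -0.03 and 0.01. All 8 genes passed the filter on low counts in both lines, but AKR1B10 in Caco-2 and AKR1B1 in HT-29 did so through treated groups, and the 2 treatments of a line share its control libraries.

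**Figure D2:**
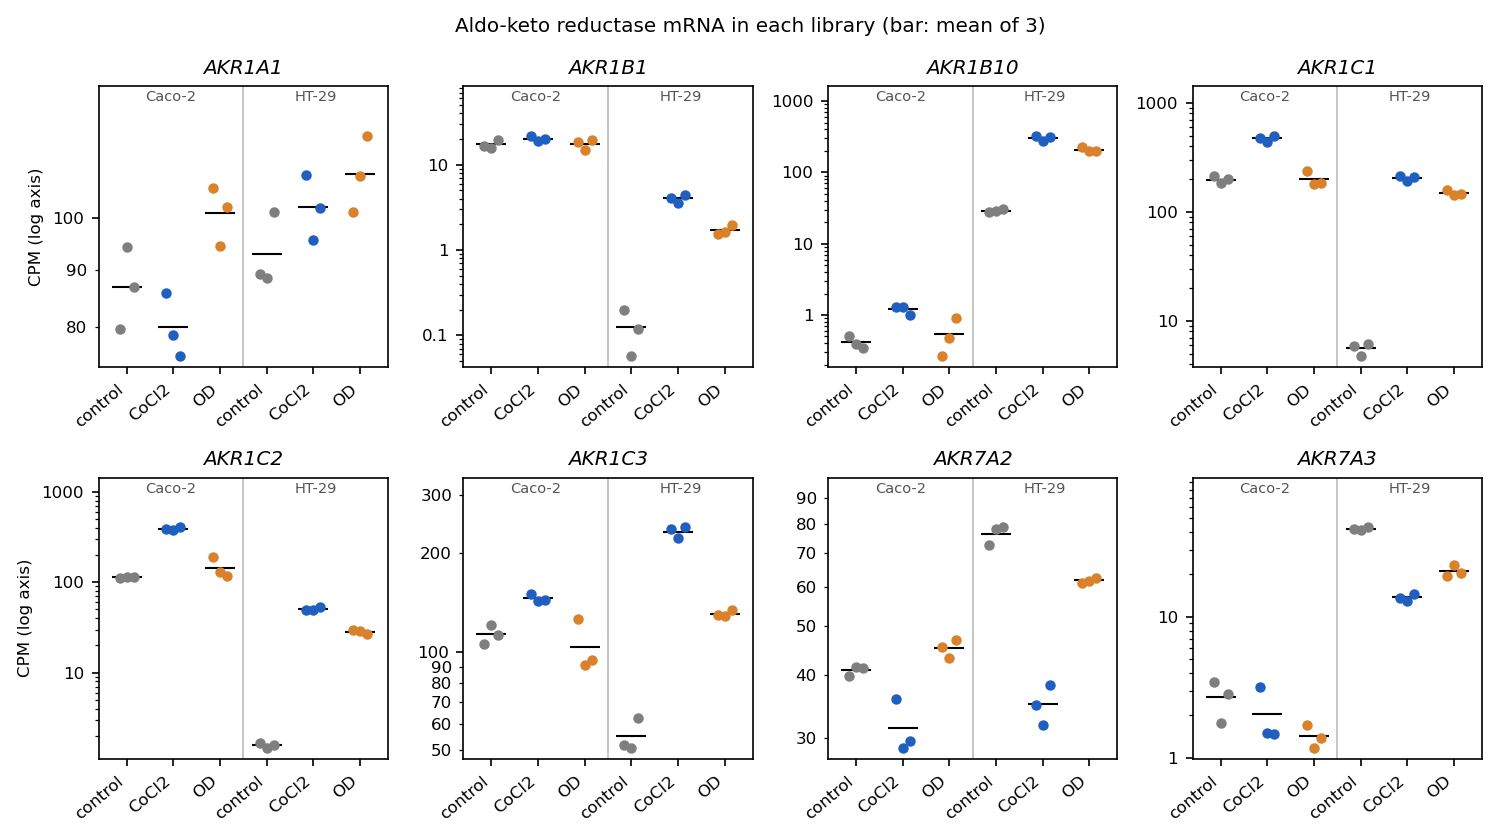
CPM of each gene in each library (points, log axis) by line and treatment, with the mean of the 3 libraries as a bar. In HT-29 the control points of AKR1B1, AKR1B10, AKR1C1, AKR1C2 and AKR1C3 lie below all points of both treatments, and those of AKR7A2 and AKR7A3 lie above them. The share of all genes so separated was not counted. At a false discovery rate under 0.05 alone, 82.8% of all genes tested in HT-29 differed with CoCl2 and 68.8% with OD.

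AKR1C1 inactivates progesterone by reduction. In HT-29 its level was 5.89, 4.74 and 6.18 CPM in the control libraries, 214, 193 and 210 CPM with CoCl2, and 157, 142 and 146 CPM with OD. Control libraries were far below all treated libraries, and CoCl2 libraries were all above OD libraries. The log2 fold change was 5.29 ± 0.08 (SE) for CoCl2 (39.2-fold, adjusted p = 1.63e-27) and 4.73 ± 0.08 for OD (26.5-fold, adjusted p = 1.99e-25). In Caco-2 the gene was high without treatment, at 211, 182 and 198 CPM, and stood at 475, 438 and 497 CPM with CoCl2 and at 238, 180 and 182 CPM with OD. The CoCl2 libraries did not overlap the controls, whereas the OD libraries did. The fold change was 2.38 with CoCl2 (log2 1.25 ± 0.09, adjusted p = 2.20e-11), which stood at log2 0.93, under the limit, without TMM scaling. For OD it was 1.01 (log2 0.02, 95% interval -0.17 to 0.21, adjusted p = 0.882).

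AKR1C2 reduces dihydrotestosterone to a weak androgen. In HT-29 it went from 1.67, 1.49 and 1.59 CPM in controls (25, 26 and 40 counts) to 49.9, 48.8 and 53.1 CPM with CoCl2 and 29.6, 29.2 and 26.5 CPM with OD. The 3 groups did not overlap. The rise was 34.4-fold with CoCl2 (log2 5.10 ± 0.10, adjusted p = 6.56e-25) and 18.2-fold with OD (log2 4.18 ± 0.11, adjusted p = 1.93e-21). In Caco-2 the control libraries were tight, at 112, 114 and 115 CPM, and CoCl2 libraries stood at 385, 375 and 405 CPM. This was a 3.42-fold rise (log2 1.77 ± 0.11, adjusted p = 1.33e-12). OD libraries stood at 189, 129 and 117 CPM, the first of them being the library that stood apart. The OD difference was log2 0.35 ± 0.11 (adjusted p = 0.012) with it and log2 0.11 ± 0.07 (adjusted p = 0.209) without it, both under the fold limit.

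AKR1C3 makes testosterone from androstenedione and also acts as a prostaglandin F synthase. It was the main AKR1C gene in untreated HT-29, at 51.8, 50.9 and 62.8 CPM, and rose to 236, 221 and 239 CPM with CoCl2 and to 129, 128 and 134 CPM with OD. The increase was 4.51-fold with CoCl2 (log2 2.17 ± 0.06, adjusted p = 9.98e-22) and 2.37-fold with OD (log2 1.25 ± 0.06, adjusted p = 8.19e-16), smaller than for AKR1C1 and AKR1C2. In Caco-2 the controls were at 106, 121 and 112 CPM and the CoCl2 libraries at 150, 142 and 143 CPM. The groups did not overlap, but the difference was log2 0.36 ± 0.09 (adjusted p = 0.00168), under the fold limit. With OD the libraries stood at 126, 91.0 and 94.2 CPM, and the difference was log2 -0.13 ± 0.10 (adjusted p = 0.283), or -0.29 ± 0.08 (adjusted p = 0.00387) without replicate 1 of the OD group.

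Since reads can move between the AKR1C genes, their sum was also examined. Counts of AKR1C1 and AKR1C2 taken as 1 gene rose in HT-29 by log2 5.26 for CoCl2 and 4.63 for OD and in Caco-2 by 1.47 for CoCl2, and differed there by 0.15 for OD (adjusted p = 0.213). The 3 genes together summed to 62.4 ± 7.20 CPM (SD, n = 3) in HT-29 controls, 488 ± 21.9 CPM with CoCl2 and 307 ± 8.18 CPM with OD. In Caco-2 the sums were 423 ± 6.13 CPM in controls, 1003 ± 45.0 CPM with CoCl2 and 448 ± 89.7 CPM with OD.

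The make-up of the AKR1C counts differed between the lines and with treatment. AKR1C2 took 34.7% to 38.6% of the AKR1C1 and AKR1C2 counts in Caco-2 controls, 44.8% to 46.2% with CoCl2 and 39.2% to 44.2% with OD. These 3 ranges did not overlap. In HT-29 the share was 20.4% to 23.9% in controls, where the 95% exact binomial interval of a library reached down to 14.9%, 18.9% to 20.2% with CoCl2 and 15.4% to 17.1% with OD. AKR1C3 took 87.3% to 89.1% of the 3 genes' counts in HT-29 controls, 47.2% to 47.8% with CoCl2 and 40.9% to 43.7% with OD, with no overlap between the 3 groups. In Caco-2 the AKR1C3 share was 24.6% to 28.9% in controls, 13.7% to 14.9% with CoCl2 and 22.8% to 23.9% with OD. These intervals cover counting error only, and an exact two-sided permutation test of 3 against 3 libraries cannot go below p = 0.1.

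**Figure D3:**
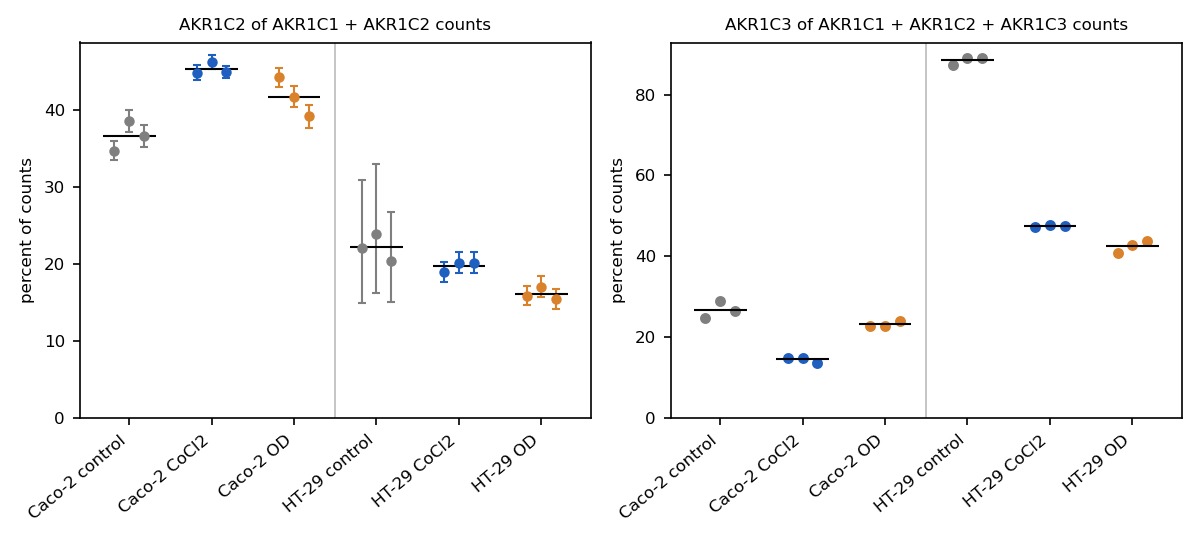
Left, AKR1C2 as percent of AKR1C1 and AKR1C2 counts in each library with its 95% exact binomial interval. Right, AKR1C3 as percent of AKR1C1, AKR1C2 and AKR1C3 counts, with group means as bars in both panels. The mean AKR1C3 share in HT-29 was 88.5% in controls, 47.5% with CoCl2 and 42.5% with OD.

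AKR1B10, a reductase of retinal and lipid aldehydes, was a gene of HT-29 in these data. Its control libraries stood at 27.7, 28.4 and 30.9 CPM, CoCl2 libraries at 325, 272 and 311 CPM and OD libraries at 224, 198 and 198 CPM, with no overlap between groups. The gene rose 11.2-fold with CoCl2 (log2 3.49 ± 0.07, adjusted p = 5.36e-25) and 7.16-fold with OD (log2 2.84 ± 0.07, adjusted p = 3.12e-22). In Caco-2 it was near the limit of detection, with 9, 6 and 5 counts in controls, 16, 18 and 19 with CoCl2 and 4, 8 and 13 with OD. The difference with CoCl2 was 2.79-fold (log2 1.48 ± 0.45, adjusted p = 0.00623), at a level of 1.20 CPM. The gene passed the filter on low counts there through treated libraries, so its entry into the test was not independent of this rise. Without the filter the adjusted p of the same test was 0.00815. With OD the difference was log2 0.35 with a 95% interval of -0.70 to 1.40 (adjusted p = 0.589).

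AKR1B1, aldose reductase, reduces glucose to sorbitol in the first step of the polyol pathway. It was high where AKR1B10 was low, with 16.5, 15.8 and 19.4 CPM in Caco-2 controls and 3, 1 and 3 counts in HT-29 controls. Caco-2 controls were thus 142-fold above HT-29 controls, with a 95% counting interval of 68.4 to 353. In HT-29 the gene had 56, 53 and 56 counts with CoCl2 and 29, 27 and 36 with OD, and neither group overlapped the controls. The ratio of summed counts to control was 33.0 with CoCl2 (95% counting interval 15.7 to 83.3) and 14.2 with OD (6.62 to 36.3). The gene passed the filter on low counts in HT-29 through treated libraries, so its entry into the test was not independent of the rise. In edgeR's fit it rose 33.6-fold with CoCl2 (adjusted p = 8.48e-14) and 13.6-fold with OD (adjusted p = 2.39e-09). Even so, the CoCl2 level of 4.03 ± 0.46 CPM (SD, n = 3) stayed below that of untreated Caco-2. In Caco-2 the libraries overlapped between groups, and the difference was log2 0.23 (95% interval -0.02 to 0.49, adjusted p = 0.0989) for CoCl2 and 0.02 (-0.23 to 0.27, adjusted p = 0.902) for OD, and both turned negative, at -0.09 and -0.13, without TMM scaling. Of the counts of AKR1B1 and AKR1B10 together, AKR1B10 took 2.39% in Caco-2 controls, 5.61% with CoCl2 and 2.98% with OD, and 98.7% or more in every HT-29 group.

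AKR7A2, which reduces succinic semialdehyde, and AKR7A3, which reduces the dialdehyde of aflatoxin, were lower with CoCl2 in HT-29. AKR7A2 stood at 72.5, 78.3 and 78.7 CPM in controls, 34.9, 31.9 and 38.3 CPM with CoCl2 and 61.1, 61.7 and 62.4 CPM with OD. All 3 groups were apart. With CoCl2 the level was 49.1% of control (log2 -1.03 ± 0.06, adjusted p = 9.35e-15), a call close to the limit that was lost, at log2 -0.95, without HT-29 CoCl2 replicate 2. With OD it was 81.3% of control (log2 -0.30 ± 0.05, adjusted p = 2.81e-05), under the fold limit. In Caco-2 the controls stood at 39.8, 41.5 and 41.3 CPM, CoCl2 libraries at 35.8, 28.7 and 29.6 CPM and OD libraries at 45.4, 43.4 and 47.0 CPM. Here too the CoCl2 libraries were all below the controls, by log2 -0.39 ± 0.09 (adjusted p = 0.000899), under the fold limit, and the OD difference was 0.14 ± 0.09 (adjusted p = 0.192), which stood at -0.01 without TMM scaling.

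AKR7A3 stood at 42.1, 41.4 and 43.2 CPM in HT-29 controls, 13.8 ± 0.81 CPM with CoCl2 (SD, n = 3, from 188, 194 and 183 counts) and 19.5, 23.2 and 20.5 CPM with OD. It fell to 35.0% of control with CoCl2 (log2 -1.52 ± 0.08, adjusted p = 4.09e-16). With OD it was at 50.3% of control (log2 -0.99 ± 0.07, adjusted p = 9.68e-13), just inside the limit, and DESeq2 gave -1.01 and called it. In Caco-2 the gene was low, with 60, 27 and 42 counts in controls, 39, 21 and 28 with CoCl2 and 26, 20 and 20 with OD. The difference was log2 -0.44 ± 0.31 (adjusted p = 0.221) for CoCl2, and -0.85 (adjusted p = 0.0272) without CoCl2 replicate 1. For OD it was -0.92 ± 0.32 (adjusted p = 0.0199), a value that passed the fold limit without Caco-2 control replicate 2 (-1.14) or without OD replicate 1 (-1.08).

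AKR1A1, the broad aldehyde reductase, varied least among the 8 genes. Its group means lay between 79.9 ± 5.37 CPM in Caco-2 with CoCl2 and 110 ± 8.61 CPM in HT-29 with OD (SD, n = 3), and each group overlapped the next in this order. With CoCl2 the difference was log2 -0.12 ± 0.08 in Caco-2 (adjusted p = 0.202) and 0.24 ± 0.06 in HT-29 (adjusted p = 0.000938), and the latter turned to -0.39 without TMM scaling. With OD it was 0.21 ± 0.08 in Caco-2 (adjusted p = 0.0318) and 0.25 ± 0.06 in HT-29 (adjusted p = 0.000867). No value of AKR1A1 passed the fold limit.

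**Figure D4:**
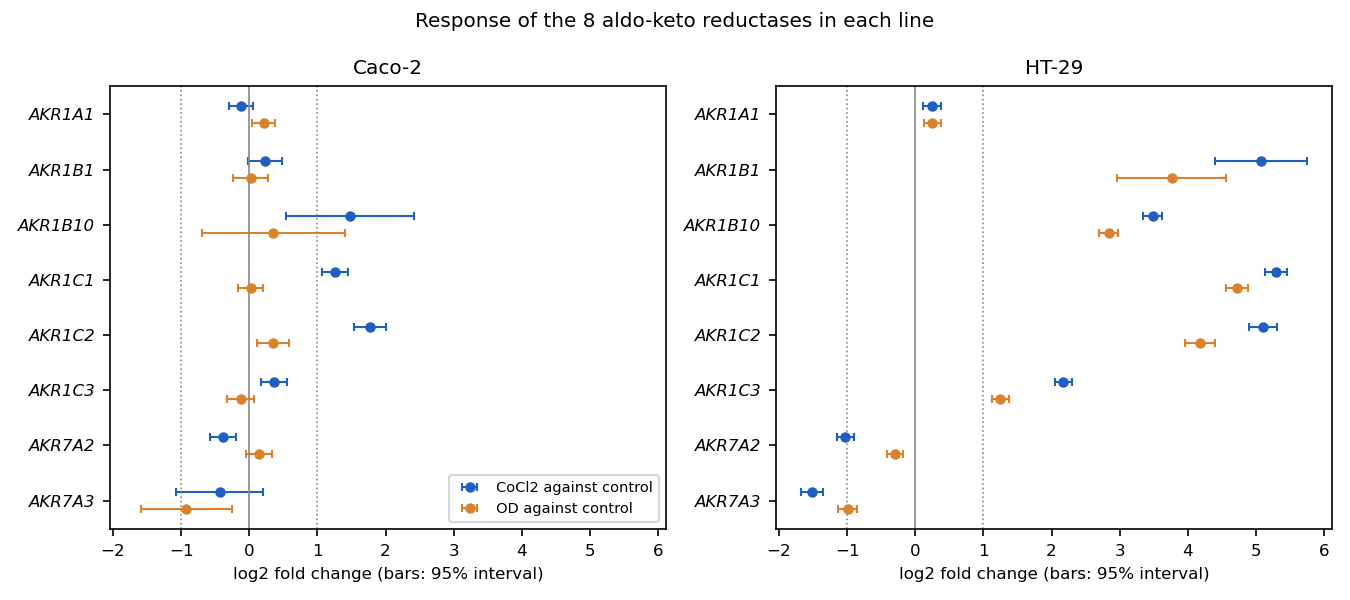
Log2 fold change against control for each gene, with its 95% interval, for CoCl2 (blue) and OD (orange) in each line. Dotted lines mark the fold limit of 1. In HT-29 the values ran from 5.29 to -1.52 for CoCl2, and in Caco-2 from 1.77 to -0.44. The fitted AKR1B1 values in HT-29 rest on 7 control counts and depend on the prior count, and their intervals are approximate.

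Without treatment the lines differed in most of the 8 genes. HT-29 controls were above Caco-2 controls for AKR1B10 (log2 6.08 ± 0.18) and AKR7A3 (3.96 ± 0.15), 2 of 8 genes, near the share of 21.6% called higher over all genes. They were below Caco-2 for AKR1B1, AKR1C2 (-6.16 ± 0.16), AKR1C1 (-5.12 ± 0.11) and AKR1C3 (-1.02 ± 0.09), 4 of 8, where 24.2% of all genes were called lower. All these calls had an adjusted p of 1.71e-12 or less. For AKR1B10, with few counts in Caco-2, the SE was 0.33 in DESeq2. The AKR1C3 call was close to the limit and was lost without Caco-2 control replicate 2, HT-29 control replicate 1 or HT-29 control replicate 2, at -0.96 to -0.97. AKR7A2 was higher in HT-29 by 0.91 ± 0.08, under the limit. Cell line and culture state cannot be told apart in these controls.

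The difference in response between the lines was tested directly. In a fit of all 18 libraries, the change with CoCl2 was larger in HT-29 than in Caco-2 for 5 genes, against 7.79% of all genes. It was lower for AKR7A3 alone, a count near the share of 13.8% over all genes. The difference of the log2 fold changes was 3.93 ± 0.14 for AKR1C1, 3.22 ± 0.21 for AKR1C2, 1.92 ± 0.44 for AKR1B10 and 1.70 ± 0.12 for AKR1C3. For AKR7A3 it was -1.16 ± 0.28 (adjusted p = 0.000744), and this call was lost without Caco-2 CoCl2 replicate 1 (-0.76) or without Caco-2 control replicate 2 (-0.94). The median difference of all genes was -0.13 with TMM and -0.03 with DESeq2 size factors. For OD the same 5 genes were higher, against 8.96% of all genes, and none lower, against 6.24%. Here the difference was 4.69 ± 0.14 for AKR1C1, 3.82 ± 0.21 for AKR1C2, 2.48 ± 0.48 for AKR1B10 and 1.36 ± 0.12 for AKR1C3. For AKR1C1 and AKR1C2 the HT-29 controls started far below Caco-2, and the treated HT-29 libraries of AKR1C1, at 142 to 214 CPM, lay in the range of untreated Caco-2 or below it, except for replicate 1 with CoCl2.

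CoCl2 and OD were also compared directly, at the single dose of each. In HT-29, AKR1B1 alone was called higher with CoCl2 (log2 1.31 ± 0.20, adjusted p = 1.25e-06), 1 of 8 genes, near the share of 10.8% over all genes. None was called lower, against 19.2%. AKR1C2 and AKR1C3 were higher with CoCl2 by 0.92 ± 0.06 each, AKR1B10 by 0.65 ± 0.06 and AKR1C1 by 0.56 ± 0.05, all under the fold limit with an adjusted p of 4.90e-10 or less. AKR7A2 differed by -0.73 ± 0.06 and AKR7A3 by -0.52 ± 0.08, likewise under the limit. These values depended on the scaling. Without TMM, AKR1B1 lost its call at 0.81, AKR7A2 (-1.23) and AKR7A3 (-1.02) were called lower, and AKR1C2, AKR1C3, AKR1B10 and AKR1C1 stood at 0.43, 0.43, 0.15 and 0.07. In Caco-2, CoCl2 was above OD for AKR1C2 (1.43 ± 0.11), AKR1C1 (1.24 ± 0.09) and AKR1B10 (1.13 ± 0.43, adjusted p = 0.0344), 3 of 8 against 5.21% of all genes, and below it for none, against 6.44%. The AKR1B10 call was lost in DESeq2 (adjusted p = 0.0687), without a filter on low counts (0.0736), without TMM scaling (0.0722) and without any of 4 libraries: Caco-2 CoCl2 replicates 1 and 2 and Caco-2 OD replicates 1 and 2 (adjusted p from 0.0821 to 0.132).

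Levels can be compared between genes only per length, and the deposited RPKM values, which divide reads by gene length and library size, serve for this. Averaged over 3 libraries, AKR1C3 was at 29.9 ± 2.02, AKR1A1 at 28.9 ± 2.46, AKR7A2 at 23.8 ± 0.54, AKR1C1 at 23.3 ± 1.71 and AKR1C2 at 18.3 ± 0.20 RPKM in Caco-2 controls. These 5 genes lay between 18.3 and 29.9 RPKM, while AKR1B1 stood at 4.90 ± 0.53 and AKR7A3 at 2.30 ± 0.72 RPKM. In HT-29 controls AKR7A2 was highest at 42.4 ± 1.63 RPKM, followed by AKR7A3 at 34.3 ± 0.52, AKR1A1 at 29.4 ± 2.02, AKR1B10 at 16.1 ± 0.77 and AKR1C3 at 13.9 ± 1.53 RPKM. With CoCl2, AKR1B10 was highest in HT-29 at 170 ± 15.9 RPKM. AKR1B1 in HT-29 and AKR1B10 in Caco-2 were listed at 0 in the deposited RPKM although both had counts. The gene lengths implied by these values were near the summed length of all annotated exons, 8765 bases for AKR1C1 and 3911 for AKR1C3, where the canonical transcripts have 6543 and 1186. The order between genes depended on this length. Per canonical transcript, the 5 genes of Caco-2 controls were at 95.1 (AKR1C3), 61.8 (AKR1A1), 35.3 (AKR1C2), 30.1 (AKR1C1) and 30.1 (AKR7A2) CPM per kilobase. In HT-29 controls, AKR1A1 was then first at 66.1, before AKR7A2 at 56.3, AKR1C3 at 46.5 and AKR7A3 at 34.8. AKR1C3 would rank above all other genes of the 8 in CoCl2-treated HT-29, at 196 CPM per kilobase against 187 for AKR1B10, and with the exon sum below AKR1B10, at 59.3 against 171.

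All 8 genes together took 303 ± 18.8 CPM in HT-29 controls, 946 ± 58.4 CPM with CoCl2 and 708 ± 15.2 CPM with OD, and 572 ± 3.80, 1138 ± 47.2 and 614 ± 95.4 CPM in Caco-2 (SD, n = 3). Of the 20 other rows of the table with an AKR symbol, 6 had no count in any library and 6 passed 10 counts in a library. AKR1E2 reached 430 counts, AKR7L 256, AKR1D1 142 and AKR1C4, the liver member of the AKR1C genes, 18 counts.

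Other known NRF2 targets were examined as a list of 23 genes. The counts of this paragraph stand beside shares over all genes. Called higher were 17.4% for CoCl2 and 9.5% for OD in HT-29, and 9.13% and 4.43% in Caco-2. Called lower, in the same order, were 23.9%, 7.57%, 14.2% and 7.27%. With CoCl2 in HT-29, 21 of 23 rose and 1 fell, with a median log2 change of 2.48 against -0.03 over all genes tested. HMOX1, heme oxygenase, rose by log2 8.77 ± 0.07, ABCC2, an organic anion exporter, by 5.96 ± 0.15 and OSGIN1, an oxidative stress response gene, by 5.23 ± 0.06, while ABCC3, a related exporter, fell by 1.56 ± 0.05 on the log2 scale. With OD in HT-29, 16 rose and none fell (median 1.36 against 0.01), led by OSGIN1 (3.32 ± 0.07), SRXN1, a sulfiredoxin with 0 to 2 counts in controls and 7 to 9 with OD (2.89 ± 0.66), and GCLC, the catalytic subunit of glutamate-cysteine ligase (2.34 ± 0.05). In Caco-2, CoCl2 raised 16 of the 22 tested and lowered 1 (median 1.55 against -0.03), led by HMOX1 (5.11 ± 0.10), OSGIN1 (3.10 ± 0.11) and GPX2, an intestinal glutathione peroxidase (2.76 ± 0.10), with ABCC3 lower (-1.62 ± 0.07). OD raised GPX2 (1.43 ± 0.10) and OSGIN1 (1.22 ± 0.12) there, 2 of 22, and lowered none (median 0.45 against -0.02). Among 8 regulators of NRF2, CoCl2 raised 6 in HT-29, with SQSTM1 (4.92 ± 0.05), MAFG (2.98 ± 0.05) and MAFF (2.24 ± 0.07) leading, and 5 in Caco-2, OD raised 2 in each line, and none fell in these 4 comparisons. The part of NRF2 in the AKR values was not tested.

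**Figure D5:**
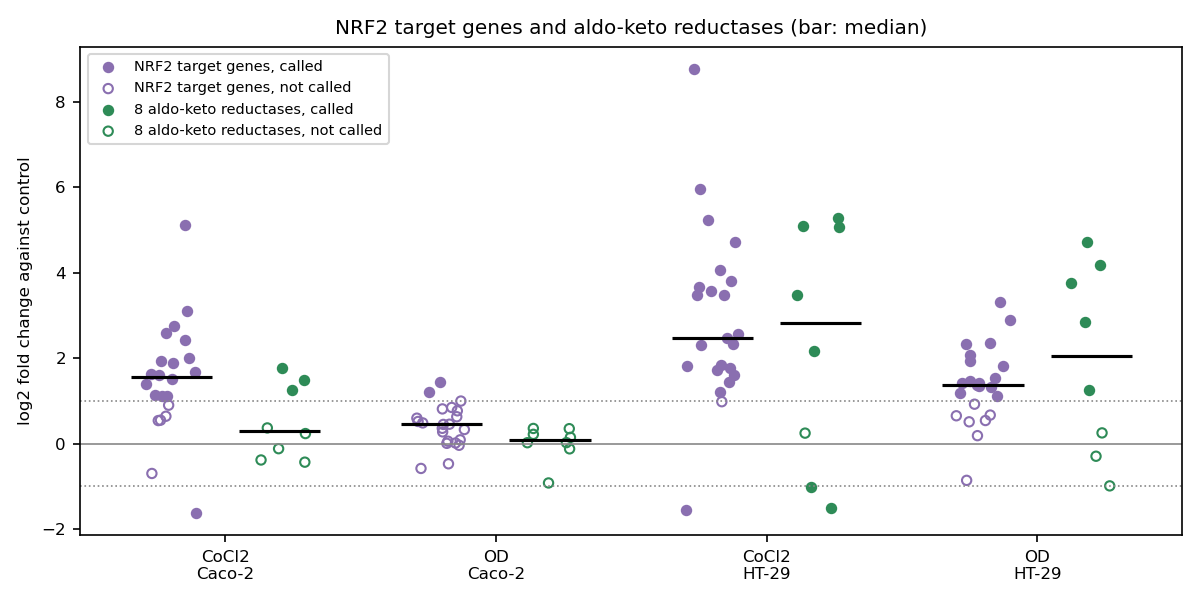
Log2 fold change against control of the tested genes of the NRF2 target list (purple) and of the 8 aldo-keto reductases (green) in the 4 comparisons, filled where called, with the median as a bar. With OD in HT-29 the medians were 1.36 and 2.04, and in Caco-2 0.45 and 0.08.

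Other enzymes that handle carbonyls went in both directions. Their counts stand beside shares over all genes, higher and lower, of 17.4% and 23.9% for CoCl2 in HT-29, 9.5% and 7.57% for OD in HT-29, 9.13% and 14.2% for CoCl2 in Caco-2, and 4.43% and 7.27% for OD in Caco-2. Of 20 other carbonyl reductases, CoCl2 raised 7 and lowered 4 in HT-29 (median 0.02), with CBR3 (4.04 ± 0.53, from 0 to 3 counts in controls), PTGR1 (2.36 ± 0.05) and DHRS9 (2.19 ± 0.22) highest and DHRS11 (-1.74 ± 0.07), CBR4 (-1.53 ± 0.09) and PTGR2 (-1.42 ± 0.30) lowest. OD raised DHRS9 (3.44 ± 0.18) and RDH11 (1.11 ± 0.05) and lowered RDH12 (-1.82 ± 0.40) in HT-29. In Caco-2, of 18 tested, CoCl2 raised DHRS2 (1.07 ± 0.14) and lowered DHRS1 (-1.02 ± 0.11), and OD lowered DHRS2 (-2.58 ± 0.19). Aldehyde dehydrogenases, which oxidize the aldehydes that these reductases reduce, were counted in the same way. With CoCl2, 7 of 16 fell and ALDH2 rose (1.23 ± 0.05) in HT-29, and 6 of 16 fell and none rose in Caco-2. ALDH1B1 was among those that fell in HT-29 (-2.41 ± 0.13) and in Caco-2 (-2.04 ± 0.12). With OD, 1 rose and 1 fell in HT-29 and 3 fell in Caco-2.

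In the polyol and fructose pathway, which AKR1B1 feeds, SORD, the enzyme that turns sorbitol into fructose, fell in Caco-2 with CoCl2 (-1.10 ± 0.09) and with OD (-1.04 ± 0.09). SLC2A5, the fructose transporter, rose there with both (2.25 ± 0.12 and 1.84 ± 0.12), and KHK, ketohexokinase, fell with CoCl2 (-1.44 ± 0.23). In all, CoCl2 raised 1 and lowered 3 of 5 genes in Caco-2, and OD raised 1 and lowered 1 there. All counts of this paragraph stand beside the shares over all genes given for the other carbonyl enzymes above. In HT-29, KHK (-2.37 ± 0.43) and TKFC, triokinase (-1.42 ± 0.08), fell with CoCl2, and SORD was at -0.78 ± 0.06, under the fold limit. With OD, SORD (-0.57 ± 0.06), KHK (-0.31 ± 0.29) and TKFC (-0.30 ± 0.07) were all under the limit there. Among genes of steroid and prostaglandin metabolism, CoCl2 raised 5 and lowered 5 of 18 in HT-29 (median -0.38), the lower count near the share over all genes, with HSD17B7 (2.14 ± 0.09) highest and HPGD, which breaks down prostaglandins, lowest (-2.61 ± 0.11). In Caco-2 it raised 1 and lowered 4 of 20, with PTGS2, the inducible cyclooxygenase, higher (1.09 ± 0.29) and HSD3B1 lowest (-2.55 ± 0.14). OD raised 2 and lowered 2 of 18 in HT-29 and lowered 2 of 20 in Caco-2, where none rose. Among 10 other members of the AKR superfamily, including potassium channel subunits, CoCl2 raised 2 and lowered 3 of 6 in HT-29 and raised 1 and lowered 1 of 4 in Caco-2. AKR7L fell with AKR7A3 in HT-29 (-1.94 ± 0.15), and the sequence it shares with AKR7A3 was given above. OD raised 1 and lowered 2 of 6 in HT-29 and changed none of 4 in Caco-2.

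The genes with the most similar pattern were sought among 13943 genes tested in both lines, as the smallest root mean square difference of centered mean log2 CPM over the 6 groups. A prior of 2 counts was used for log2 CPM. Distances of AKR1B1, with 1 to 3 counts in HT-29 controls, and of AKR1B10, with 4 to 19 counts in Caco-2, depend on it. For AKR1C2 the nearest were AKR1B1 (0.58), RAB3B (0.76) and AKR1C1 (0.80). Whether AKR1B1 would rank before AKR1C1 with another prior was not tested, and the rank is no measure of shared reads. For AKR1C1 they were PIM1 (0.65), NEURL3 (0.74) and RAB3B (0.75), and for AKR1B1 ETNK2 (0.37), GCNT4 (0.50) and ATP10D (0.54). AKR1B10 was nearest to PRR5L (0.76), IFI27 (0.93) and AL365181.3 (0.94). AKR1C3 was nearest to RDH11 (0.12), MAPK8IP3 (0.15) and TRAFD1 (0.15), and AKR7A3 to HOXA10 (0.24), FCGBP (0.29) and CYP2B6 (0.29). The smallest differences were those of AKR1A1 with RNF31 (0.07), NBR1 (0.07) and DUSP18 (0.07) and AKR7A2 with CCDC97 (0.08), MUS81 (0.08) and CEP120 (0.08).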

How the data were processed

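Messenger RNA of 18 libraries (3 per group, 6 groups) was examined, and microRNA files were not used. According to the methods and processing notes, the authors read 75-base single ends, trimmed them with cutadapt 2.10 after FastQC 0.11.9, and aligned them to GRCh38.p13 with STAR 2.7.5b. They deposited raw gene counts and log2(RPKM + 1) values, the latter with edgeR 3.30.3 among the listed tools. The counting tool, use of strand and treatment of multi-mapping reads are not given in the sources used here.

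The deposited counts were tested with edgeR 4.0.16 (R 4.3.3) by the quasi-likelihood F test after filterByExpr and TMM scaling, over the 9 libraries of a line, or over all 18 for differences between lines, with Benjamini-Hochberg adjustment over all genes tested. DESeq2 1.42.0, limma 3.58.1 on the deposited log2 values and other filters, scalings and sample sets served as alternatives. Code was tested on simulated data. RPKM was used for levels per length. Sequence windows and coding identity came from GENCODE release 44 and promoters from RefSeq, read with Biopython 1.88.

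All 8 genes were named, with at most the 3 highest and 3 lowest called genes of each list and the 3 nearest patterns per gene. Part of the polyol and fructose list in HT-29 is not reported here. Members and lists were chosen with earlier results of these data known. Whether replicate numbers pair the libraries is not stated. Correlations of same-numbered deviations lay between -0.079 and 0.065, which showed no pairing but cannot exclude shared handling. Intervals of counts cover counting error only.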

Additional observations from a re-analysis of the deposited data

Results flagged for a closer look

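The change with CoCl2 differed between HT-29 and Caco-2 in the test of the difference for 6 of the 8 genes (edgeR's quasi-likelihood test, log2 fold change in HT-29 minus that in Caco-2), beside 7.79% of all genes called higher and 13.8% lower. The difference was 4.73 ± 0.38 (SE) for AKR1B1 (adjusted p = 1.26e-12), 3.93 ± 0.14 for AKR1C1 (1.18e-21), 3.22 ± 0.21 for AKR1C2 (7.46e-15), 1.92 ± 0.44 for AKR1B10 (0.000464), 1.70 ± 0.12 for AKR1C3 (1.33e-13) and -1.16 ± 0.28 for AKR7A3 (0.000744), whose call was lost without Caco-2 CoCl2 replicate 1 (-0.76) or Caco-2 control replicate 2 (-0.94). With OD it differed for 5 genes, beside 8.96% of all genes called higher and 6.24% lower, by 4.69 ± 0.14 for AKR1C1 (6.44e-23), 3.82 ± 0.21 for AKR1C2 (1.95e-16), 3.72 ± 0.42 for AKR1B1 (6.77e-09), 2.48 ± 0.48 for AKR1B10 (7.37e-05) and 1.36 ± 0.12 for AKR1C3 (5.66e-11). Values of AKR1B1 rest on 7 counts in HT-29 controls, and those of AKR1B10 on 4 to 19 counts per library in Caco-2. For these differences DESeq2 gave an SE of 0.58 with CoCl2 and 0.59 with OD for AKR1B1. For AKR1B10 it gave 0.40 and 0.45. Both treatments share the controls of a line.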

How the results depend on the processing

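Of 1253 gene values under alternatives, 1176 kept direction and call, 36 gained a call, 15 lost one and 26 changed sign. These include the setting without a fold limit, which reuses the main fit and so can only keep or gain a call. Without TMM the sign changed for AKR1B1 with CoCl2 (-0.0882) and with OD (-0.13), AKR7A2 with OD (-0.00936) and AKR1C1 with OD (-0.14) in Caco-2, none past the test, and for AKR1A1 with CoCl2 in HT-29 (-0.39, adjusted p = 3.20e-06). On deposited log2 RPKM with limma, AKR1B1 and AKR1C1 with OD in Caco-2 stood at -0.0138 and -0.0246. The summed counts of the 3 AKR1C genes gave 0.0801 for OD in Caco-2, where AKR1C3 alone gave -0.13. AKR1A1 in CoCl2 against OD in HT-29 was 0.0210 with DESeq2 size factors and 0.0212 in DESeq2. Leaving out 1 library gave -0.0554 to 0.14 for AKR1B1, -0.17 to 0.67 for AKR1B10 and -0.12 to 0.0948 for AKR1C1 with OD in Caco-2, -0.0607 to 0.0549 for AKR1A1 in CoCl2 against OD in HT-29, and, for the difference between lines with OD, -0.31 to 0.14 for AKR7A3 and -0.0482 to 0.0829 for AKR1A1.

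Without a fold limit, 5 of the 8 genes were called for CoCl2 in Caco-2 and 3 there with OD, 6 for CoCl2 against OD in Caco-2, 8 for OD in HT-29 and 7 for CoCl2 against OD in HT-29, beside 64.7%, 50.4%, 49.6%, 68.8% and 77.7% of all genes in the same order. Without TMM the count was 1 for OD in Caco-2 (AKR7A3) and 2 for CoCl2 against OD in HT-29, where the call of AKR1B1 higher was lost and AKR7A2 and AKR7A3 were called lower. With limma they were 0 for CoCl2 against OD in HT-29 and 3 for the difference between lines with OD, where AKR1B1 and AKR1B10 were not tested in the line that lists them at 0. Leaving out 1 library gave 0 to 1 for OD in Caco-2, the call being AKR7A3.

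With the replicate block, 7 genes were called for CoCl2 in HT-29 and 3 in Caco-2, and no call of the 8 genes changed in any comparison. Over all genes, the number called ranged from 1868 to 8202 between comparisons, from 341 to 4307 with limma and from 7682 to 14175 without a fold limit. The share of calls that were higher, without TMM against with it, was 19.7% against 39.1% for CoCl2 and, with OD, 23.3% against 37.9% in Caco-2, 28.3% against 44.7% for CoCl2 against OD in Caco-2, 17.2% against 42.1% for CoCl2 and 43.4% against 55.7% for OD in HT-29, 12.9% against 36% for CoCl2 against OD in HT-29, and 23.2% against 36% for the difference between lines with CoCl2. Causes were not tested. Depth limits AKR1B1 in HT-29 controls and AKR1B10 and AKR7A3 in Caco-2, where a library held 60 counts or fewer.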
